A study of Homo sapiens with 4 samples.

Results

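The 9 genes described here encode the enzymes, receptors and inhibitors that govern plasmin formation and the start of blood coagulation at the cell surface: PLAU, PLAT, PLAUR, SERPINE2, SERPINB2, F3, TFPI, TFPI2 and THBD. They were taken by symbol from the 19653 genes of a deposited RNA-seq count table, and each had 1 row. TFPI2 was chosen by its measured counts in these libraries, so its difference is described without a test, and the other 8 were added as members of its pathway. RNA was sequenced from hTERT-RPE1, human retinal pigment epithelial cells made immortal by telomerase, in 2 libraries labelled sgControl and 2 labelled sg53BP1, all labelled as given no treatment. The sgControl cells, labelled WT, carried a lentiviral vector with Cas9 but no guide RNA, and the sg53BP1 cells, labelled 53BP1 knockout, a lentiviral vector with a guide against 53BP1, a chromatin protein of DNA double-strand break repair. The labels do not say whether the knockout is a clone or a pool, nor whether a group's libraries are from separate cultures. The p-values therefore cover only the spread among these 4 samples, possibly a technical spread.

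Plasminogen activators cleave the circulating zymogen plasminogen to plasmin, a protease that dissolves fibrin and degrades matrix proteins. Urokinase works bound to its receptor on the cell surface, tissue-type activator works best on fibrin, and serpins stop both by forming a covalent complex with them. Tissue factor, the receptor of factor VIIa, starts coagulation where blood meets cells that carry it, Kunitz-type inhibitors restrain the proteases involved, and thrombomodulin turns thrombin towards activating protein C. Retinal pigment epithelium adjoins the capillary bed of the choroid, and cultured pigment epithelial cells are known to make plasminogen activators and tissue factor.

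Total counts lay between 16654411 and 18164086 per library, so that 3 counts corresponded to 0.166 to 0.181 CPM, a count scaled to the size of its library. The libraries labelled sgControl stood further apart than those labelled sg53BP1: among 10407 genes with a mean of at least 5 CPM, 414 differed more than 2-fold within the former pair and 4 within the latter. RNA of the targeted gene was higher in the libraries labelled as its knockout. RNA counts alone do not tell whether the protein was lost. TUBGCP4 overlaps TP53BP1 on the opposite strand, and the strand setting of the counts is not known. TP53BP1 counts were 431 and 594 under the label sgControl and 1743 and 1516 under sg53BP1, 2.95-fold higher in the latter (edgeR quasi-likelihood F test, adjusted p = 0.00224). Every direction below is given as the libraries are labelled and would turn if the labels were exchanged. Of the markers of pigment epithelium, MITF lay between 29.2 and 37.6 CPM and OTX2 between 6.87 and 12.2 CPM, whereas RLBP1 and TYR stayed under 1 CPM in all 4 libraries. The epithelial keratin KRT8 lay between 484 and 850 CPM, and the epithelial surface markers EPCAM and CDH1 stayed under 1 CPM.

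Promoter sequences were taken from the RefSeq table, build GRCh38.p14, another build than that of the counts. They were searched for 7 of the 9 genes, in 9 windows of 300 bases. PLAT and THBD were not searched. The stretch of 250 bases before the start is shown for TFPI2, TFPI and SERPINE2, whose RNA was lower in both libraries labelled sg53BP1, and for F3 and SERPINB2, whose libraries overlapped between the groups. Capitals mark the AP-1 pattern TGANTCA, the TATA box TATAAA and the E-box CACGTG, searched on both strands.
TFPI2 (chr7:93890754-93891003, minus strand): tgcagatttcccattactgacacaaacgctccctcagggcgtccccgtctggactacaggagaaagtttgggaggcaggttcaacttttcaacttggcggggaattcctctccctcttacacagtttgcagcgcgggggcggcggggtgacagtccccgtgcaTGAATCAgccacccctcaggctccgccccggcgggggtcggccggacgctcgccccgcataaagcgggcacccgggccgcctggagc
TFPI (chr2:187554436-187554685, minus strand): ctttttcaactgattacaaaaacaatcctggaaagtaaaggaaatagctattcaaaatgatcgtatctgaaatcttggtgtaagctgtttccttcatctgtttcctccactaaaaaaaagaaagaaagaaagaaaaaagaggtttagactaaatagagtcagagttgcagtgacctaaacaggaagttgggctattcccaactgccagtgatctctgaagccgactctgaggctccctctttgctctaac
SERPINE2 (chr2:224031479-224031728, minus strand): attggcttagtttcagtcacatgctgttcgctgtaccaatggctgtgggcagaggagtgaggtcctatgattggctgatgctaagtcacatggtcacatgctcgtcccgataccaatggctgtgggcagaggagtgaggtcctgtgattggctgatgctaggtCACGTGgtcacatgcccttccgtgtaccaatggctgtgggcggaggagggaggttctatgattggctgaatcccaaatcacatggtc
F3 (chr1:94541760-94542009, minus strand): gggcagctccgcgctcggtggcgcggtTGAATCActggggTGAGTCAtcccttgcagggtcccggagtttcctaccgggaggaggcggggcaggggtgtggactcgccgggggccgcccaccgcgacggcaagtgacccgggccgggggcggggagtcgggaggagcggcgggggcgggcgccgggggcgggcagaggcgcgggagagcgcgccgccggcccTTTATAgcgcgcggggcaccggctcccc
SERPINB2 (chr18:63887455-63887704, plus strand): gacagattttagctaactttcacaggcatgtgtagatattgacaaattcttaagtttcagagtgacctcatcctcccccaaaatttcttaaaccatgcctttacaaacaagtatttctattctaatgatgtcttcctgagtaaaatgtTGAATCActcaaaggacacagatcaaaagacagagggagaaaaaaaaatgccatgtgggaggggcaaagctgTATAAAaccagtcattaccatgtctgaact

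The AP-1 pattern occurred in the windows of genes from both sets. TFPI2 had 1 match, with its first base at −87 from the start, SERPINB2 had 1 at −102, F3 had 2 at −223 and −210, and PLAUR, whose sequence is not shown, had 1 at −186. No match was found in the windows of TFPI, PLAU or SERPINE2. Of 35116 windows of the same length in the table, 7.71% held the pattern. The TATA box was matched in F3 at −28, on the opposite strand's letters, and in SERPINB2 at −30, against 11.5% of all windows. The E-box was matched in the SERPINE2 window shown, at −87, against 7.26% of all windows, and the other SERPINE2 window, which belongs to another start, held none of these 3 patterns. A loose NF-kB pattern (3 G, any 5 bases, 2 C), which can overlap the GC box GGGCGG, was present in 58.7% of all windows. It matched 4 times in TFPI2, 3 times in F3, 2 times in TFPI and 5 times in PLAUR, and not in SERPINB2. The PLAU windows held 1 and 6 matches, the SERPINE2 window shown none and the other SERPINE2 window 4. The GC box was present in 45% of all windows and matched 2 times in TFPI2, 4 times in F3 and not in TFPI, PLAUR or SERPINB2. It matched 1 time in the SERPINE2 window shown, 2 times in the other, and 3 times in 1 of the PLAU windows. The cAMP response element TGACGTCA was matched in none of the windows of the 7 genes searched, against 1.85% of all windows. A match of letters is not a binding site, and no match says only that the letters are not in this window.

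Across the pathway, RNA of tissue-type plasminogen activator, protease nexin-1, tissue factor pathway inhibitor, its relative TFPI2 and, by less, the urokinase receptor was lower in both libraries labelled sg53BP1, thrombomodulin RNA was higher in both, and the RNA of urokinase, SERPINB2 and tissue factor overlapped between the groups. Of the 8 genes other than TFPI2, 3 fell (PLAT, SERPINE2 and TFPI) and 1 rose (THBD) at a Benjamini-Hochberg adjusted p under 0.05 with edgeR, while 4 did not pass. Among all 13140 genes tested, 3.01% were called lower and 2.07% higher, 5.08% in all. The median log2 fold change of the 8 genes was −0.43 and that of all tested genes −0.02. Of the same 8 genes, 4 were lower in both libraries labelled sg53BP1 than in either labelled sgControl and 1 was higher in both, against 25.9% and 24.8% of all tested genes, 50.7% in all. TFPI2, chosen by its counts in these libraries, is left out of that count. In cultures measured in bulk, fewer cells that make an RNA and less RNA per cell cannot be told apart. The plot of levels by library shows the 4 values of each gene.

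**Figure D1:**
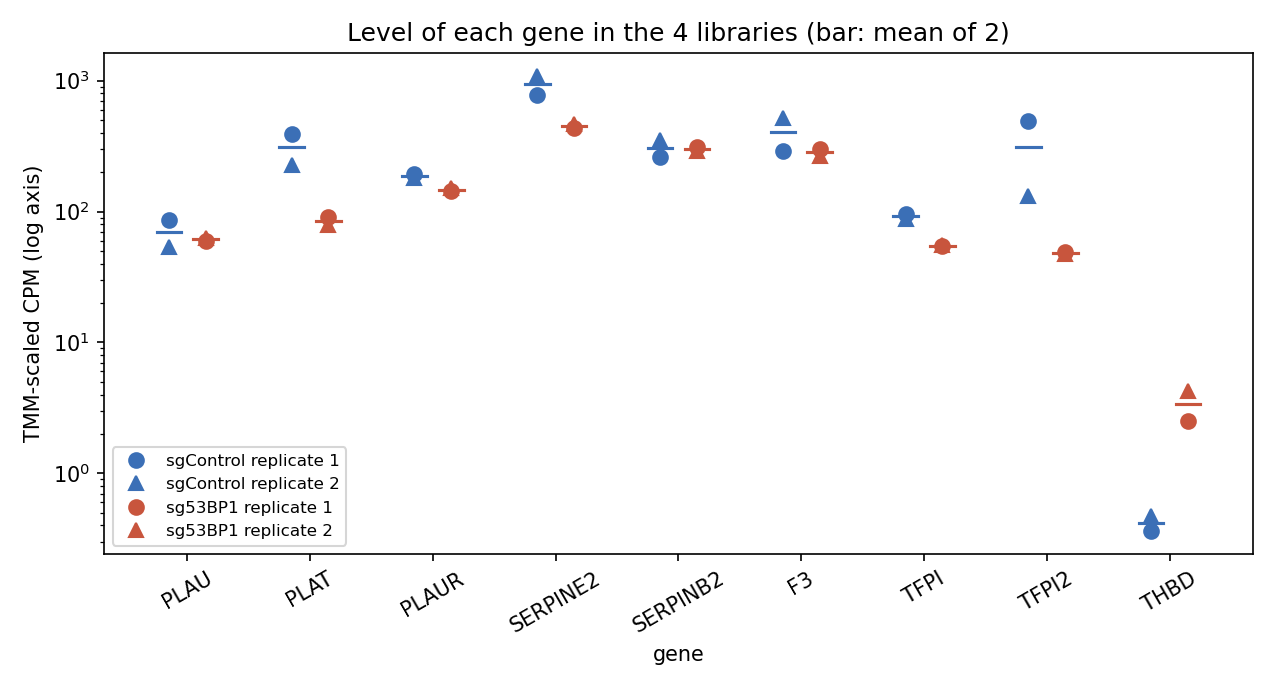
Level of each of the 9 genes, in CPM scaled by TMM on a log axis, in each library (blue sgControl, red sg53BP1, circles replicate 1, triangles replicate 2, bars the mean of 2). PLAT, PLAUR, SERPINE2, TFPI and TFPI2 lie lower in both libraries labelled sg53BP1, THBD lies higher in both, and the groups overlap for PLAU, SERPINB2 and F3.

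Of the activators, PLAT fell and PLAU did not pass the test. PLAT, tissue-type plasminogen activator, had 6520 and 3828 counts in sgControl and 1643 and 1411 in sg53BP1. Both libraries labelled sgControl were high and both labelled sg53BP1 low, with no overlap, and sgControl replicate 1 stood 1.72-fold above replicate 2. The level was 310.3 ± 117 CPM in sgControl and 84.6 ± 8.83 CPM in sg53BP1 (SD, n = 2 each), 3.67-fold lower. The log2 fold change of PLAT was −1.87 ± 0.29 (SE; edgeR adjusted p = 0.0417), and the call was lost with limma-voom (adjusted p = 0.0536). PLAU, urokinase, had 1440 and 902 counts in sgControl and 1075 and 1139 in sg53BP1. The libraries labelled sg53BP1 lay between those labelled sgControl, so the groups overlapped. The log2 fold change of PLAU was −0.19 ± 0.23 (SE; edgeR adjusted p = 0.718). Leaving out sgControl replicate 1 gave 0.23, and leaving out replicate 2 gave −0.49, so the sign rests on which sgControl library is used.

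The counts of the activators stood in another ratio to each other in the groups, a quantity that no scaling between libraries can change. As PLAU changed little, this ratio mostly restates the fall of PLAT and is not a separate result. How often ratios of other genes separate the groups was not computed. There were 0.221 and 0.236 counts of PLAU for each count of PLAT in the libraries labelled sgControl, with 95% counting intervals of 0.209 to 0.234 and 0.219 to 0.253. The ratio was 0.654 and 0.807 in those labelled sg53BP1. The groups did not overlap, and the sgControl libraries were close to each other in this ratio although both genes stood higher in replicate 1. Ratios of counts are read here only across libraries, since the genes differ in length.

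PLAUR, the urokinase receptor, which is tethered to the membrane by a lipid anchor, had 3221 and 3007 counts in sgControl and 2585 and 2716 in sg53BP1. The groups did not overlap, and each pair was close. The level was 187 ± 10.7 CPM (SD, n = 2) in sgControl, with 194 and 179 CPM, and 147 ± 5.60 CPM (SD, n = 2) in sg53BP1, with 143 and 151 CPM. PLAUR had a log2 fold change of −0.34 ± 0.12 (SE) and did not pass the test (edgeR adjusted p = 0.169). The log2 fold change of PLAUR was −0.25 without sgControl replicate 1 and −0.39 without replicate 2. The counts of PLAU for each count of PLAUR were 0.447 and 0.3 in sgControl and 0.416 and 0.419 in sg53BP1, so this ratio overlapped between the groups.

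Of the serpins that inhibit plasminogen activators, SERPINE2 fell and SERPINB2 was at nearly the same mean level in both groups. SERPINE2, protease nexin-1, a secreted inhibitor of thrombin, urokinase and tissue-type activator, had 12982 and 18305 counts in sgControl and 7862 and 8421 in sg53BP1. Both libraries labelled sg53BP1 were below both labelled sgControl, and here sgControl replicate 2 was the higher of its pair. The level was 936 ± 217 CPM in sgControl and 2.07-fold lower, 451 ± 23.3 CPM, in sg53BP1 (SD, n = 2 each). The log2 fold change of SERPINE2 was −1.05 ± 0.17 (SE; edgeR adjusted p = 0.0119). SERPINB2, plasminogen activator inhibitor type 2, which remains largely inside the cell, had 4352 and 5953 counts in sgControl and 5640 and 5223 in sg53BP1. Its libraries labelled sg53BP1 lay between those labelled sgControl. SERPINB2 had a log2 fold change of −0.03 ± 0.16 (SE) (edgeR adjusted p = 0.943), and it was −0.20 and 0.21 without sgControl replicates 1 and 2.

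Both serpin genes stood higher in sgControl replicate 2, and their ratio was close between the sgControl libraries. There were 2.98 and 3.075 counts of SERPINE2 for each count of SERPINB2 in sgControl and 1.39 and 1.61 in sg53BP1. The 95% counting intervals were 2.88 to 3.09 and 2.99 to 3.17 in sgControl, and 1.35 to 1.44 and 1.56 to 1.67 in sg53BP1. The ratio thus differed between the libraries labelled sg53BP1 beyond counting error, by less than it differed between the groups. The ratio of PLAT to SERPINB2 was also lower in both libraries labelled sg53BP1, at 0.291 and 0.2702, than in sgControl, at 1.498 and 0.643. The ratio of PLAT to SERPINE2 did not separate the groups in this way. It was 0.502 in sgControl replicate 1, 0.209 in sgControl replicate 2, and 0.209 and 0.168 in the libraries labelled sg53BP1. The ratio of PLAU to SERPINB2 overlapped between the groups, at 0.331 and 0.1515 in sgControl and 0.191 and 0.218 in sg53BP1. As SERPINB2 changed little, the ratios of SERPINE2 and PLAT to it mostly restate the falls of these genes.

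**Figure D2:**
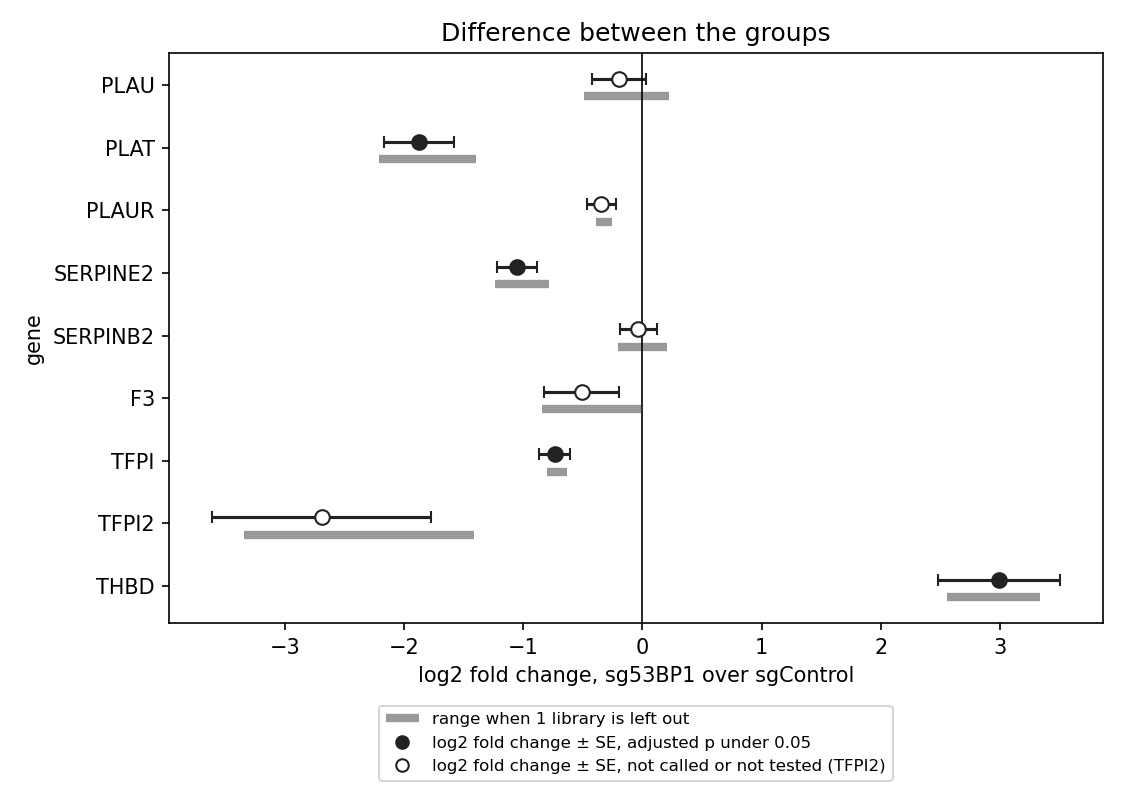
Log2 fold change of each gene, sg53BP1 over sgControl, with its standard error (points; filled where the adjusted p was under 0.05, open where it was not or, for TFPI2, where no test is given), and the range of the fold change when each library was left out in turn (grey bars). PLAT, SERPINE2, TFPI, TFPI2 and PLAUR keep to negative values and THBD to positive values in all 4 of these fits, while the bars of PLAU and SERPINB2 cross 0 and that of F3 ends at −0.01.

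In the tissue factor arm, the inhibitor fell and tissue factor did not pass the test. F3, which encodes tissue factor, had 4791 and 8770 counts in sgControl and 5473 and 4801 in sg53BP1. sgControl replicate 2 alone was high, at 522 CPM against 267 to 303 CPM in the other 3 libraries. F3 had a log2 fold change of −0.51 ± 0.32 (SE) (edgeR adjusted p = 0.486). Without sgControl replicate 1 it was −0.84, and without sgControl replicate 2 it was −0.01, so the size of the difference rests on sgControl replicate 2. TFPI, the Kunitz-type inhibitor of factor Xa and of the complex of tissue factor with factor VIIa, had 1597 and 1465 counts in sgControl and 993 and 991 in sg53BP1. The pairs were tight and did not overlap. The level was 91.7 ± 6.38 CPM in sgControl and 1.67-fold lower, 54.99 ± 0.0953 CPM, in sg53BP1 (SD, n = 2 each). The log2 fold change of TFPI was −0.74 ± 0.13 (SE; edgeR adjusted p = 0.0142). The antisense gene AC007319.1 overlaps TFPI, and without a known strand setting reads of the pair cannot be told apart.

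TFPI2 encodes a second Kunitz-type inhibitor, which is secreted into the extracellular matrix and inhibits plasmin. Its counts were 8114 and 2189 in sgControl and 881 and 847 in sg53BP1. Both libraries labelled sg53BP1 were low and close to each other, both labelled sgControl were higher, and sgControl replicate 1 stood 3.75-fold above replicate 2. The level was 309.6 ± 254 CPM in sgControl and 47.9 ± 1.18 CPM in sg53BP1 (SD, n = 2 each), 6.46-fold lower, with a log2 fold change of −2.69. Leaving out sgControl replicate 1 gave −1.41, and leaving out replicate 2 gave −3.34. The SD in sgControl was thus nearly as large as the difference between the means, and the size of the difference rests on which sgControl library is used. GNGT1, which overlaps TFPI2 on the opposite strand, had at most 1 count in any library. The antisense gene AC002076.1 also overlaps TFPI2 and has no value here, so the limit on strand given for TFPI holds for TFPI2 too. C10orf55, which overlaps PLAU, had 6 to 13 counts in a library, and SERPINB10, which overlaps SERPINB2, had 1 to 7.

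The ratio of tissue factor to TFPI overlapped between the groups, with both its lowest and its highest value in sgControl. The counts of F3 for each count of TFPI were 3.0 in sgControl replicate 1 and 5.99 in replicate 2, with 95% counting intervals of 2.83 to 3.18 and 5.66 to 6.33. In the libraries labelled sg53BP1 they were 5.51 and 4.845, between those values. TFPI2 was chosen by its counts in these libraries, so ratios that include it follow that choice and are given only as description. The counts of F3 for each count of TFPI2 were 0.5905 and 4.006 in sgControl and 6.21 and 5.67 in sg53BP1. The counts of TFPI2 for each count of TFPI were 5.08 and 1.49 in sgControl and 0.887 and 0.855 in sg53BP1. TFPI2 was therefore lower relative to TFPI in both libraries labelled sg53BP1 than in either labelled sgControl, by an amount that differs between the sgControl libraries.

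THBD, thrombomodulin, the thrombin receptor known best from endothelium, was the member that rose. Its counts were 6 and 8 in sgControl and 45 and 77 in sg53BP1. The groups did not overlap, and the level stayed low, at 0.419 ± 0.0811 CPM in sgControl and 3.38 ± 1.27 CPM in sg53BP1 (SD, n = 2 each), 8.08-fold higher. The log2 fold change of THBD was 2.99 ± 0.51 (SE; edgeR adjusted p = 0.0127). Its mean was under 5 CPM, so it was not among the genes tested when a mean of at least 5 CPM was required. No endothelial marker was called. CDH5, TEK, VWF and CLDN5 stayed under 1 CPM in all 4 libraries, and the summed level of the 6 endothelial markers was 6.69 and 16.5 CPM in sgControl and 4.31 and 3.17 CPM in sg53BP1, over 3 tested markers and 3 with too few counts to test. KDR made up most of the endothelial sum in sgControl replicate 2. It had 3.01 and 13.9 CPM in sgControl and 1.88 and 1.11 CPM in sg53BP1, without overlap (edgeR adjusted p = 0.275). PECAM1 had 2.59 and 0.714 CPM in sgControl and 1.77 and 0.833 CPM in sg53BP1. The 4 monocyte and macrophage markers summed to 9.58 and 4.52 CPM in sgControl and 2.82 and 2.33 CPM in sg53BP1. CD14, PTPRC and CD68 were under 1 CPM. Most of that sum was CSF1R, at 9.04 and 4.05 CPM in sgControl and 2.32 and 2.11 CPM in sg53BP1 (edgeR adjusted p = 0.0779).

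The 4 calls share a limit. Without sg53BP1 replicate 1 or without replicate 2, none of the 4 genes passed, with adjusted p-values of 0.361 and 0.435 for PLAT, 0.365 and 0.33 for SERPINE2, 0.361 and 0.388 for TFPI, and 0.2096 and 0.474 for THBD. In those fits 5 genes of the whole table passed, since the spread then came from the sgControl pair. The authors' deposited comparison, whose sign is control over knockout, is of the same libraries, so its directions are no separate support. Its adjusted p was 1.68e-13 for PLAT, 2.48e-07 for SERPINE2, 8.40e-04 for TFPI and 0.0015 for THBD, with the same directions. On the counts used here the DESeq2 Wald test gave PLAT an adjusted p of 2.52e-11, so its size depends on the test. Of 6 markers listed for fibroblasts, THY1 and PDGFRA were called lower and none higher. The summed level of the 6 was 228 and 236.5 CPM in sgControl and 133 and 142 CPM in sg53BP1, and most of it was THY1, at 190.4 and 199.7 CPM in sgControl and 104.0 and 111.9 CPM in sg53BP1. The list did not move as one. PDGFRB had 24.6 CPM on average in sgControl and 18.1 in sg53BP1, COL1A1 had 9.10 and 10.2 CPM, and neither passed. COL1A2 and LUM stayed under 1 CPM in every library, with LUM at 0 counts in sgControl and 6 in each library labelled sg53BP1. The part of these markers in the result was not tested.

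Within the sgControl pair, these genes did not move together. TFPI2, PLAT, PLAU, TFPI and PLAUR were higher in sgControl replicate 1, and F3, SERPINE2, SERPINB2 and THBD in replicate 2. The log2 difference of replicate 1 minus replicate 2 was 1.91 for TFPI2, and 2.41% of all tested genes had a difference as large in either direction. It was 0.79 for PLAT and −0.85 for F3, reached by 11.6% and 10.3% of genes. It was 0.14 for TFPI and 0.12 for PLAUR, below the median size of 0.23 over all tested genes. In the pair labelled sg53BP1 the differences of the 8 genes other than THBD lay between −0.11 and 0.21, and that of THBD, the gene with few counts, was −0.76. The plot of the group difference against the sgControl gap shows that the members called lower include genes from both sides of the gap.

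**Figure D3:**
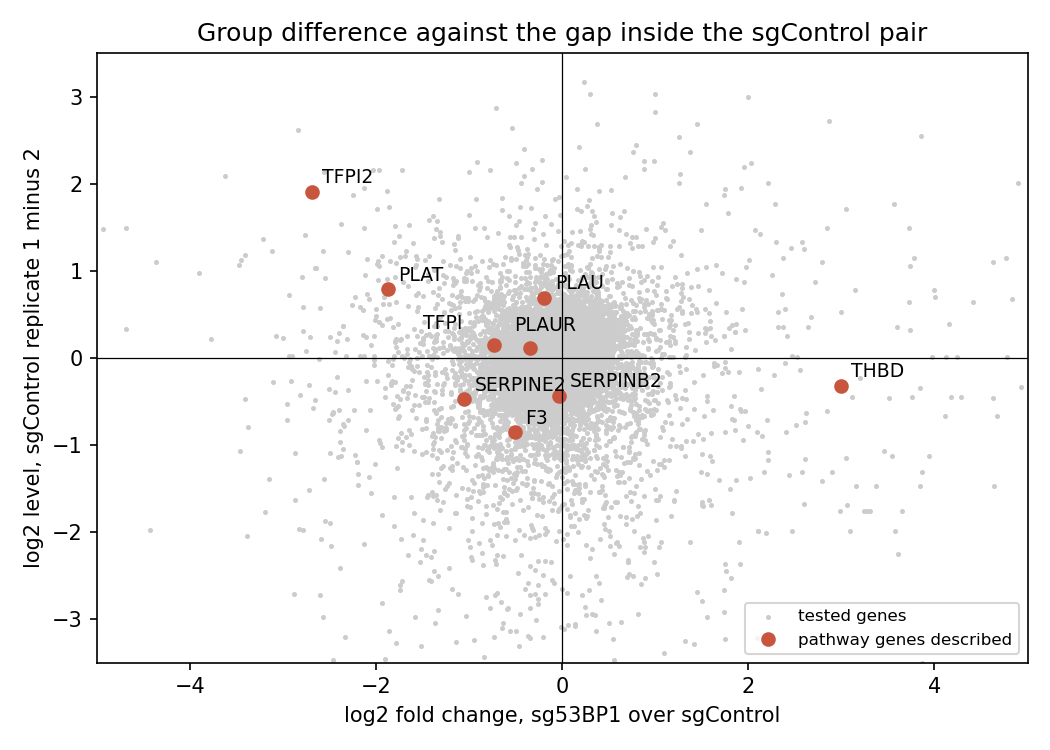
Log2 level in sgControl replicate 1 minus replicate 2 (vertical axis) against the log2 fold change of sg53BP1 over sgControl (horizontal axis), for the 9 genes (red) and all tested genes (grey; 106 tested genes lie outside the axes). TFPI2 has the largest gap of the 9 genes at 1.91, PLAT lies above 0 at 0.79, SERPINE2 below it at −0.48 and TFPI near it at 0.14.

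Divided by the exon length of each gene, the levels also changed their order. In the libraries labelled sgControl, F3 (100.4 and 182 CPM per kb), SERPINB2 (95.4 and 129), SERPINE2 (88.0 and 122.5) and TFPI2 (182 and 48.6) overlapped and cannot be ranked. PLAT (59.4 and 34.4 CPM per kb) and PLAUR (43.5 and 40.2) overlapped below F3, SERPINB2 and SERPINE2, followed by PLAU (29.4 and 18.2), TFPI (8.21 and 7.44) and THBD (0.088 and 0.116). In those labelled sg53BP1, SERPINB2 (113.5 and 106 CPM per kb) and F3 (105 and 92.8) were next to each other, and the gap between them was smaller than the spread of either pair. SERPINE2 followed at 48.9 and 52.6 CPM per kb, PLAUR at 32.1 and 33.9, PLAU at 20.2 and 21.5, TFPI2 at 18.2 and 17.6, PLAT at 13.7 and 11.8, and TFPI at 4.69 and 4.70. THBD was lowest in both groups, at 0.606 and 1.04 CPM per kb in sg53BP1. By this measure PLAT was above PLAU in each library labelled sgControl and below it in each labelled sg53BP1. The lengths, 6618 bases for PLAT and 2950 for PLAU, join all annotated exons and can exceed the expressed transcript. In raw counts PLAT stayed above PLAU in every library, at 1643 and 1411 against 1075 and 1139 in sg53BP1. The change of order therefore depends on these lengths.

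Of 61 other genes listed for the pathway, 48 were measured here and 27 had enough counts to be tested. None rose and 3 fell, beside 2.07% and 3.01% of all tested genes, and the median log2 fold change was −0.18. S100A10, which with annexin A2 forms a surface complex that binds plasminogen and tissue-type activator, had 3658 and 3179 counts in sgControl and 2086 and 2353 in sg53BP1. It fell 1.66-fold (log2 fold change −0.73, standard error 0.14, edgeR adjusted p = 0.0182), with no overlap. Its partner ANXA2 had 2766 and 2545 CPM in sgControl and 3075 and 3189 CPM in sg53BP1 and did not pass (edgeR adjusted p = 0.291), although the groups did not overlap. PROS1, protein S, a cofactor of activated protein C and of TFPI, had 1837 and 1556 counts in sgControl and 922 and 872 in sg53BP1. It fell 2.04-fold (log2 fold change −1.03, standard error 0.14, edgeR adjusted p = 0.00452).

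SERPINB7, a clade B serpin and the nearest gene of the table on one side of SERPINB2, had 468 and 580 counts in sgControl and 219 and 188 in sg53BP1. It fell 2.78-fold (log2 fold change −1.475, standard error 0.18, edgeR adjusted p = 0.00277), while its relatives SERPINB6 and SERPINB8 had log2 fold changes of −0.10 and −0.20 and did not pass. These 3 called genes also lost their calls without either library labelled sg53BP1, with adjusted p-values between 0.147 and 0.465. None of the 5 clearance receptors tested was called. LRP1, which takes up complexes of activators with serpins, had a log2 fold change of −0.37 (edgeR adjusted p = 0.129). Of the 2 coagulation factors tested, F8 and F12, neither passed, and the other 5 measured had at most 16 counts in a library. F2R, the main thrombin receptor, had a log2 fold change of 0.37 (edgeR adjusted p = 0.175), and the protein C receptor PROCR −0.55 (edgeR adjusted p = 0.082). SERPING1, the C1 inhibitor, had 271 counts in sgControl replicate 2 and 2 to 14 in the other libraries, so its log2 fold change of −3.54 rests on that library (edgeR adjusted p = 0.603).

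**Figure D4:**
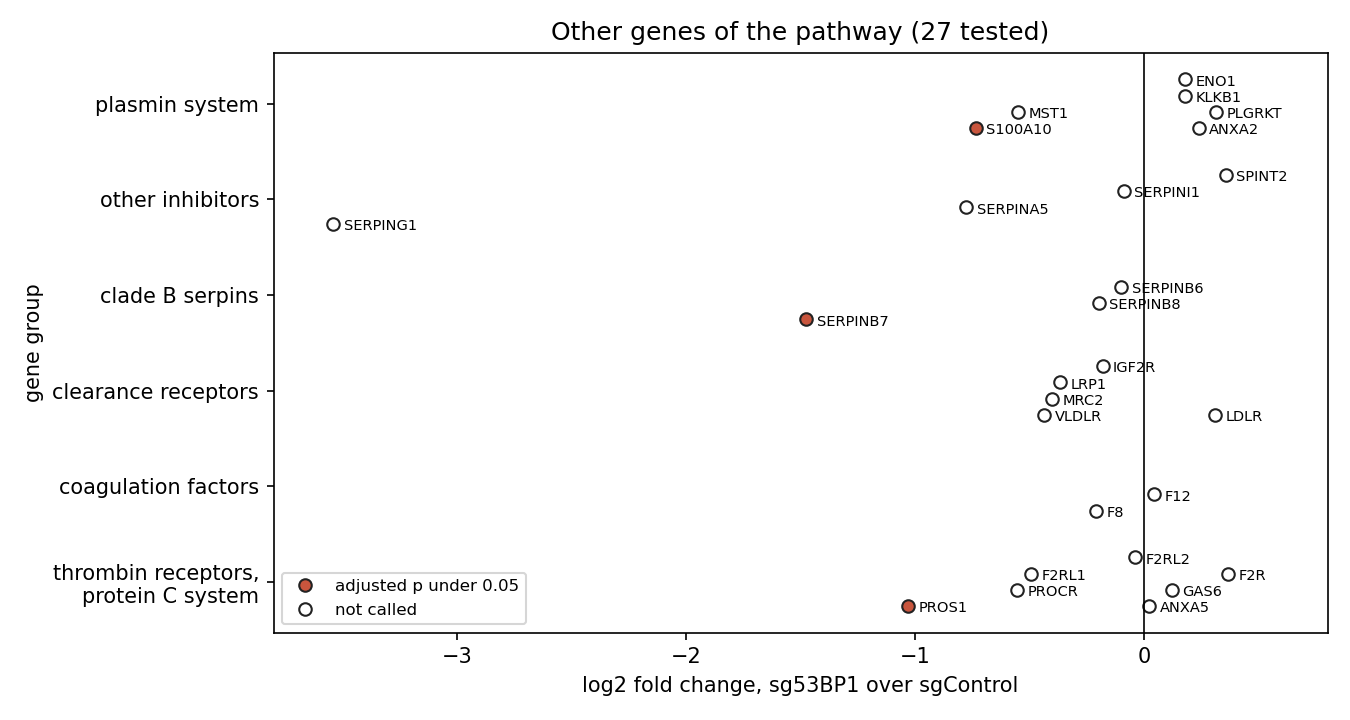
Log2 fold change, sg53BP1 over sgControl, of the 27 tested genes of the pathway other than the 9 described, by gene group (filled points, adjusted p under 0.05; vertical offsets only separate the points). The called genes S100A10, SERPINB7 and PROS1 lie at −0.73, −1.475 and −1.03.

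The nearest listed gene on each side of the 9 genes was looked up in GENCODE release 29. Of these 18 neighbours, 12 were tested and 2 were called, SERPINB7 and CALCRL, where 5.08% of all tested genes were called. CALCRL, next to TFPI and the receptor component for calcitonin gene-related peptide and adrenomedullin, was chosen after its values were seen. It had 27 and 23 counts in sgControl and 4 and 4 in sg53BP1 (log2 fold change −2.72, edgeR adjusted p = 0.0342). GNG11, a G protein subunit gene next to TFPI2, was also chosen after its values were seen. It had 2219 and 1435 counts in sgControl and 1100 and 1156 in sg53BP1 and did not pass (log2 fold change −0.81, edgeR adjusted p = 0.0984). Its counts had the same order of libraries within sgControl as TFPI2 had, with a ratio of replicate 1 to replicate 2 of 1.57 in CPM.

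Among 10407 genes with a mean of at least 5 CPM, those with the pattern nearest to TFPI2 over the 4 libraries were PTGS2, TNFAIP6 and GFPT2. Likeness was the root mean square difference of log2 levels centred on each gene's mean, 0.18 for PTGS2, 0.20 for TNFAIP6 and 0.25 for GFPT2. PTGS2 had 1048 and 241 counts in sgControl and 135 and 102 in sg53BP1, so that it too was highest in sgControl replicate 1. The genes nearest to SERPINB2 were C9orf40 (0.011), HDAC9 (0.015) and NUDCD1 (0.017). HDAC9 had 1251 and 1719 counts in sgControl and 1605 and 1468 in sg53BP1. These likenesses rest on 4 libraries and are given as descriptions.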

How the data were processed

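The submitters' processing notes name HTSeq 0.6.0, Bowtie2 2.2.3 and HISAT2 2.1.0, with build hg19. Annotation and strand setting were not given in the sources used here. Per the labels' protocols, 2 µg of RNA entered each library and paired reads of 150 bp were made. The authors deposited a table of raw read counts per gene, matched to samples by description. Beside the counts, the authors deposited their own comparison, with a mean signal, a log2 fold change and its error, a statistic (score), a p-value and an adjusted p-value. The table had 20050 rows, of which 397 repeats with identical counts were removed.

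Groups were compared with edgeR's quasi-likelihood test (edgeR 4.0.16, R 4.3.3), after filterByExpr and TMM, with robust dispersion and no covariate beside group. P-values were adjusted by Benjamini and Hochberg over 13140 genes, with a threshold of 0.05. Levels are TMM-scaled CPM (mean ± SD), and standard errors were back-calculated from F. The fit was tested on simulated data in which both groups had the same spread, unlike the sgControl and sg53BP1 pairs. That test therefore says nothing on calls under unequal spread. Intervals of ratios are exact binomial (Clopper-Pearson) and, like floors of 3 counts, cover counting error only. Levels within the sgControl and sg53BP1 pairs were compared on log2(CPM + 0.1). Exon lengths (all annotated exons of a gene joined), overlaps and neighbours come from GENCODE release 29, on another build than the counts.

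The genes, lists and alternatives were chosen with earlier results of these data known. Named genes were the 9 members, TP53BP1, up to 4 called genes of each group of the pathway list, and the 3 genes nearest in pattern to TFPI2 and to SERPINB2. Genes named beside these were chosen after their values were seen. Alternatives were the Wald test of DESeq2 1.42.0, its size factors, limma-voom (limma 3.58.1), library totals, every gene kept, only genes with a mean of 5 CPM or more, the replicate number as a block, leaving out each library and, chosen after seeing the data, limma-voom with a weight for each group. Where a library was left out, its partner was taken to vary as the other group does. A planned comparison of proteins was not run.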

Additional observations from a re-analysis of the deposited data

How the results depend on the processing

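PLAT, SERPINE2, TFPI, TFPI2, PLAUR and F3 kept a negative log2 fold change in every fit run, and THBD kept a positive one in every fit but that on genes with a mean of at least 5 CPM, where it was not tested. All fits drew on the same libraries, and where the groups do not overlap leaving 1 out could hardly turn the sign. Keeping the sign is therefore no added support. For F3, whose groups overlap, the log2 fold change was −0.012 without sgControl replicate 2. With no low-count filter 1548 of 19653 genes passed in place of 667 of 13140. Among them were F3 (−0.50, edgeR adjusted p = 0.0129) and 5 of 48 other pathway genes. With limma-voom PLAT did not pass (−1.825). No fit with DESeq2 size factors, library totals, the DESeq2 Wald test or a weight for each group changed a call of the 8 tested members. The cause of these changes was not tested. With the replicate number as a block, 297 genes passed; TFPI (−0.74, adjusted p = 0.0525) and S100A10 (adjusted p = 0.0724) did not, and no other call among the members or S100A10, SERPINB7 and PROS1 changed. The labels link same-numbered libraries only by their number. Their deviations correlated across genes with r = 0.0467. That value sets a single gap in each group against the other, so it cannot decide whether the libraries were paired.

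Leaving out 1 library gave 5 to 3358 called genes, 0 to 6 of the 8 members and 0 to 11 of the other pathway genes. The log2 fold changes ranged over −0.49 to 0.23 for PLAU, −2.21 to −1.40 for PLAT, −0.39 to −0.25 for PLAUR, −1.24 to −0.78 for SERPINE2, −0.20 to 0.21 for SERPINB2, −0.84 to −0.012 for F3, −0.80 to −0.63 for TFPI, −3.34 to −1.41 for TFPI2 and 2.55 to 3.33 for THBD. Calls without a library labelled sg53BP1 rest on the distant sgControl pair, and those without a library labelled sgControl on the close sg53BP1 pair. Depth limits THBD most, with 6 and 8 counts in sgControl.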
